A study of Drosophila melanogaster with 2 samples.

Results

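The genes described here are 10 Drosophila melanogaster genes of muscle, found by symbol in the dm6 annotation out of 18164 annotated genes on 6 chromosome arms. They are Mef2, the fusion genes kirre, sns and mbc, the nuclear anchoring gene Msp300, and the sarcomere genes sls, bt, Mhc, up and Act57B. The question was where, at these genes, the protein encoded by CG10654 was bound in embryos. Chromatin immunoprecipitation sequencing (ChIP-seq) was done with an antibody against green fluorescent protein (GFP) on a transgenic line in which GFP is fused to the C-terminus of CG10654. There was 1 group of 2 biological replicates, whole embryos of pooled sexes collected from 0 to 24 h, and no second genotype, treatment or stage. Each value averages over all tissues of the embryo, so binding in few muscle cells and weak binding in many cells cannot be told apart.

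Body wall muscles of the fly embryo form when founder cells fuse with fusion-competent myoblasts. Founder cells carry the adhesion receptor Kirre and fusion-competent myoblasts carry Sns, and Mbc activates Rac inside the cell as the membranes join. The MADS-box factor Mef2 switches on differentiation genes, among them those for the contractile proteins. In the finished sarcomere, Sallimus (sls) and Projectin (bt) are titin-like proteins, Mhc is the myosin heavy chain, up encodes troponin T and Act57B a muscle actin. Msp300 is a giant nesprin that anchors muscle nuclei.

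The deposited data are peak lists. Candidates were called by the authors from either replicate and from their reads combined (the pooled list), and they kept as final peaks those passing an irreproducible discovery rate (IDR) threshold, which compares rankings between replicates. Replicate 1 gave 23253 candidates, replicate 2 gave 30000 and the pooled reads gave 27219, of which 4117 became IDR peaks. Signal is the authors' enrichment per peak, in units with no stated scale, and the lowest pooled signal of an IDR peak was 99.3. The pooled list held 4117 candidates at or above that signal, as many as there were IDR peaks. The IDR list thus matched a cut on pooled signal, and a gene without an IDR peak could hold only weaker pooled candidates. A peak was counted for a gene when its summit, the position of highest signal, lay in the annotated span or within 2 kb of it. Promoter summits are those within 500 bp of any annotated transcription start site (TSS). A summit inside a transcript but outside exons is an intron summit. Ranks count from the strongest peak of a list, and the rank of an IDR peak is also its rank in the pooled list.

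IDR peaks lay at 5 of the 10 genes, 26 peaks in all. They were counted at kirre (15 peaks), Mef2 (5), mbc (3), Msp300 (2) and sls (1), and none at Mhc, up, Act57B, bt or sns. Among the fusion genes kirre and mbc thus had peaks and sns did not, and among the sarcomere genes only sls did. In 12 of the 26 cases the nearest TSS was that of a gene outside the list. The windows below were read from the Release 6 reference sequence on the plus strand, and each holds the summit and 50 bp on either side. They are shown because they are the summits on which the account of Msp300, mbc, sls and kirre turns. Capitals mark the longest run of A and T, except in the first, where they mark a Mef2-type site, found by the pattern CTA, any 4 bases, then TAG.
Msp300 internal promoter, chr2L:5108123-5108223: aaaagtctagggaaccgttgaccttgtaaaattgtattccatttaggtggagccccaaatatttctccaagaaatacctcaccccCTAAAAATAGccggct
Msp300 intron, chr2L:5145705-5145805: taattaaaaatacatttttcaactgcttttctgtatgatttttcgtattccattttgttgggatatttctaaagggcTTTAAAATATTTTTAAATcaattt
mbc promoter, chr3R:23781512-23781612: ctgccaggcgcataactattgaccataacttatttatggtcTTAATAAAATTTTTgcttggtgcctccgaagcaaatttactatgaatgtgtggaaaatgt
mbc first intron, chr3R:23782950-23783050: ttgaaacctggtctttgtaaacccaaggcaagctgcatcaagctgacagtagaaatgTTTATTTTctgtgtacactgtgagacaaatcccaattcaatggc
sls promoter, chr3L:2115791-2115891: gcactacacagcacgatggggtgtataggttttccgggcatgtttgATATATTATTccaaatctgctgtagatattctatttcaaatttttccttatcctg
kirre intron, strongest, chrX:3097178-3097278: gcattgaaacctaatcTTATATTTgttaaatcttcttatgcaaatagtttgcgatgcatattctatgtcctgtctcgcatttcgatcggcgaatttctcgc
kirre intron near CG32795, chrX:2786715-2786815: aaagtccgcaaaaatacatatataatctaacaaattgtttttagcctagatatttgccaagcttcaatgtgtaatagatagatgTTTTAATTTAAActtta

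Msp300 had a peak at an internal promoter and another in an intron. The gene spans positions 5100877 to 5207002 of 2L on the plus strand (FBgn0261836, 5 TSSs, 11 transcripts). Its strongest peak, from 5108045 to 5108303, had a pooled signal of 564.1 (rank 159), with 331.3 in replicate 1 (rank 216) and 224.8 in replicate 2 (rank 106). The summit lay 339 bp upstream of an internal TSS of Msp300 and inside the second intron of 4 longer transcripts. It was the only member window with a match to that pattern, which 82 of all 4117 IDR windows held (1.99%), against 0.899% of windows of the same width centred 300 bp away. The pattern is not the Mef2 consensus itself, which has A or T at the middle positions and allows C or T at the first and A or G at the last. The full consensus, searched after the data had been seen, was in 3 of the 26 member windows, this one and 2 of kirre, in 7.63% of all IDR windows and in 3.08% of the flanks. A match describes letters and not a bound site.

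The second Msp300 peak, from 5145734 to 5145905, lay in an intron, 631 bp upstream of another internal TSS. Its signal was 304.2 in the pooled reads (rank 680), 183.9 in replicate 1 and 121.1 in replicate 2. Its window was among the poorest in G and C of the 26, at 21.8%, and held an A and T run of 18 bp. Both Msp300 peaks ranked higher in replicate 2 than in replicate 1. A further candidate in a distal intron of Msp300 had a pooled signal of 98.78 (rank 4139), just below the lowest IDR signal. The other candidates at the gene did not exceed 74.24.

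At mbc the peaks lay at the promoter and in the first intron. The gene spans positions 23781765 to 23801634 of 3R on the plus strand (FBgn0015513) and has 1 annotated TSS. The promoter peak, from 23781451 to 23781634, had a pooled signal of 277.1 (rank 801), with 204.5 in replicate 1 and 78.39 in replicate 2. Its summit lay 203 bp upstream of the mbc TSS but only 59 bp downstream of a TSS of Nup98-96, which encodes nuclear pore proteins and is read in the other direction. The peak therefore belongs to a promoter region shared by both genes, and the data do not assign it to either.

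The 2 intronic mbc peaks had their summits 1235 and 2344 bp downstream of the mbc TSS, in the first intron of both annotated transcripts. The nearer had a pooled signal of 248.7 (rank 995), with 169.6 in replicate 1 and 63.22 in replicate 2. The farther had 177.4 (rank 1824) and 125.7 in replicate 1, and the nearest candidate of replicate 2 lay 118 bp away with a signal of 72.11. It thus fell outside the 100 bp within which summits were matched. Replicate 1 exceeded replicate 2 by 2.61 and 2.68 times at the other mbc peaks, above the median ratio of 1.93 over all IDR peaks (quartiles 1.60 and 2.34).

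The titin-like gene sls carried a single peak, just upstream of its only TSS. The gene spans positions 2039681 to 2115611 of 3L on the minus strand (FBgn0086906), and all 13 annotated transcripts start at that TSS. The peak, from 2115775 to 2115931, had a pooled signal of 217.7 (rank 1255), with 149.5 in replicate 1 (rank 1185) and 66.47 in replicate 2 (rank 1616). Its summit lay 230 bp upstream of the TSS, with no TSS of another gene within 500 bp. In the rest of its 75.9 kb the gene held almost no candidates: the remaining pooled candidates, of signal 47.17 and 38.83, lay within 2 kb of the same TSS.

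**Figure D1:**
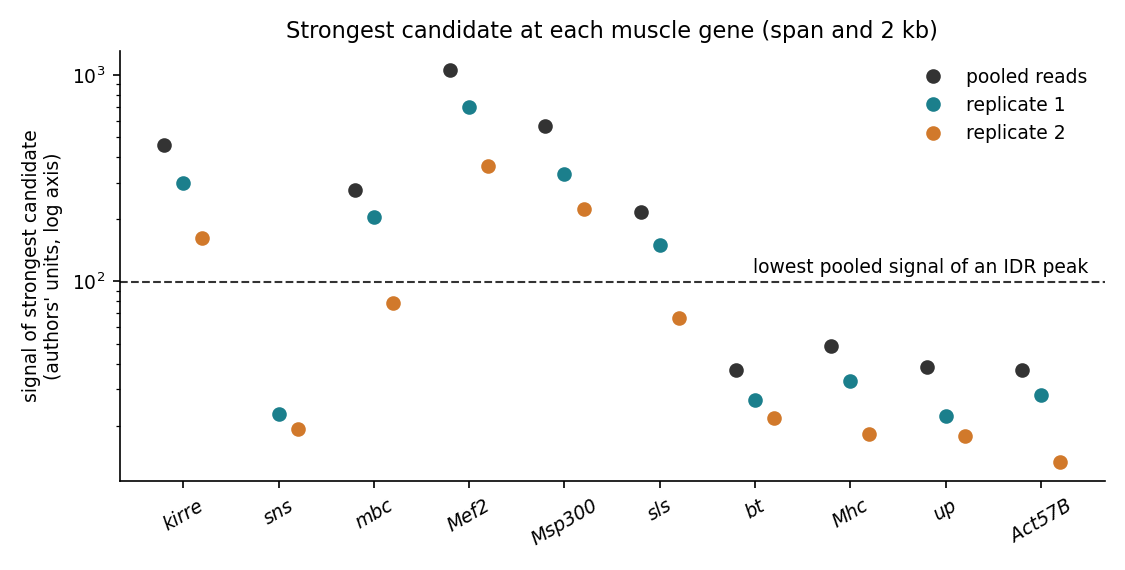
Signal of the strongest candidate in the span or within 2 kb of each gene, in authors' units on a log axis, for the pooled reads and each replicate. The strongest pooled candidates of kirre, mbc, Mef2, Msp300 and sls lie above the dashed line, the lowest pooled signal of an IDR peak (99.3), and those of bt, Mhc, up and Act57B lie at 48.62 or lower. The gene sns has a candidate in each replicate and none in the pooled list.

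The fusion receptor gene kirre held the most peaks, and none of them lay at its own promoters. It spans positions 2740384 to 3134532 of the X chromosome on the plus strand (FBgn0028369), 394.1 kb with 6 annotated TSSs, and 25 other genes have a TSS in that span or within 2 kb. Among the 15 IDR peaks, 11 were intronic and 4 were promoter summits of other genes. The nearest TSS belonged to kirre for 5 peaks and to another gene for 10. Only 2 pooled candidates lay within 500 bp of a kirre TSS, the stronger with a signal of 39.37.

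The strongest kirre peak, from 3097089 to 3097335, was intronic and 2322 bp upstream of a kirre TSS. Its signal was 460.0 in the pooled reads (rank 252), 300.8 in replicate 1 (rank 280) and 162.7 in replicate 2 (rank 236). The ranks were thus much alike in all lists. A run of 4 weaker peaks lay 18909 to 36679 bp downstream of an internal kirre TSS, with pooled signals of 128.2, 112.3, 118.4 and 124.6. In replicate 1 these had signals from 72.55 to 81.32 and in replicate 2 from 34.47 to 41.23, so each replicate placed them in a narrow band.

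The other kirre peaks were nearest to TSSs of genes nested in it or at its ends, some of them far away. Near its start, peaks of pooled signal 185.5 and 294.7 lay 290 and 142 bp upstream of TSSs of Syx4, which encodes a syntaxin of the vesicle fusion machinery. An intronic pair, at 316.1 and 236.1, lay 2557 and 1836 bp downstream of a TSS of CG32795. The peak at the CG3588 promoter had a signal of 185.9. At the 3′ end of kirre, the peak of signal 113.8 had its summit in a kirre exon and 343 bp upstream of a TSS of N, which encodes the Notch receptor. The remaining intronic peaks were nearest to CG14416, 11732 bp away (pooled signal 99.86), and to CG4116. The peaks nearest to CG4116 lay 27573 and 21305 bp downstream of its TSS (133.3 and 233.1) and upstream of it at -902 bp (111.0). The peak of 99.86, rank 4085, lay just inside the IDR list.

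Per unit of sequence kirre did not stand out. Its window held 3.77 IDR peaks per 100 kb, against 3.04 on the X chromosome and 3.08 over all arms. Its paralogue rst, whose start lies within the annotated span of kirre, had 12 pooled candidates and 0 IDR peaks.

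**Figure D2:**
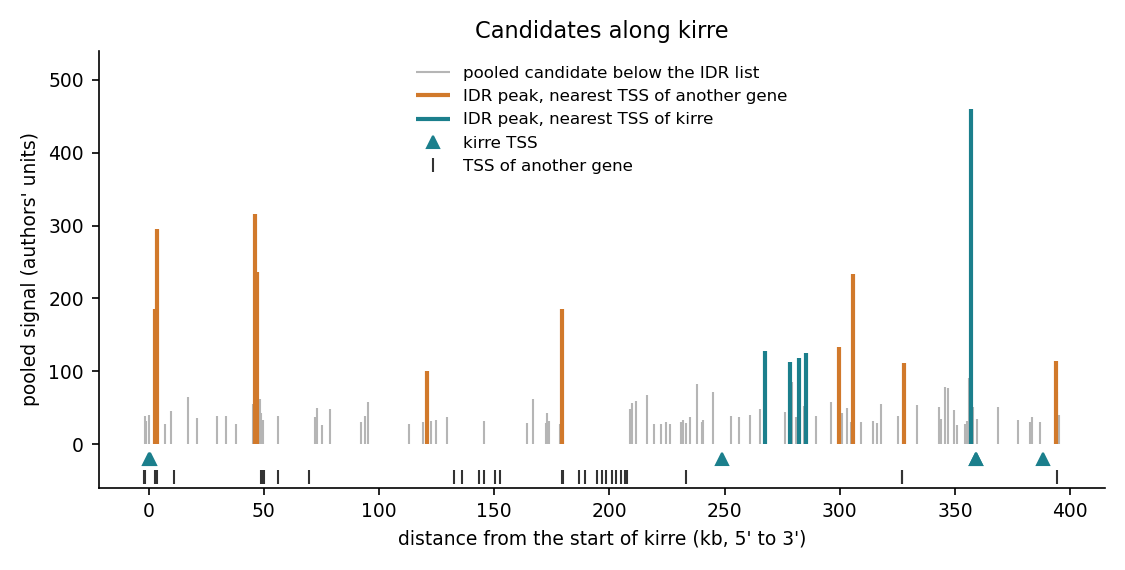
Pooled candidates along kirre, with the distance from the start of the gene in kb on the x axis and pooled signal in authors' units on the y axis. Triangles are the TSSs of kirre and ticks those of other genes. The tallest line (460.0) stands 2322 bp before a kirre TSS, and 10 of the 15 IDR peaks are nearest to a TSS of another gene.

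The strongest peak counted for any of the 10 genes lay upstream of Mef2, at the promoters of its neighbours. Mef2 spans positions 9913496 to 9958858 of 2R on the minus strand (FBgn0011656, 3 TSSs, 11 transcripts). The peak, from 9959700 to 9960123, had a pooled signal of 1052 (rank 25), with 701.7 in replicate 1 (rank 27) and 360.1 in replicate 2 (rank 23). Its summit lay 1057 bp upstream of the Mef2 TSS, but 163 bp upstream of a TSS of Pal1, which encodes a lyase of neuropeptide amidation, and within 500 bp of a TSS of Pdrg1 read in the other direction. It enters the Mef2 count through the 2 kb margin alone.

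Inside Mef2 the peaks were weaker. One in a 5′ UTR exon of 1 transcript, 1781 bp downstream of an internal TSS, had a pooled signal of 251.9 (rank 964), with 161.8 in replicate 1 and 87.46 in replicate 2. The 3 others lay in first introns, with pooled signals of 108.5, 105.2 and 135.4. Of these, the first had 75.11 in replicate 1 and a nearest replicate 2 candidate of 24.41 at 126 bp. The second had 79.62 in replicate 1 and 21.65 in replicate 2, a ratio of 3.68 that was the highest among the member peaks. The third had 80.31 and 60.58, a ratio of 1.33 that was the lowest. At the TSSs of Mef2 itself no IDR peak was found, and the candidates there had pooled signals of 90.56, 45.1 and 40.24.

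The window of Mef2 was dense in peaks, with 10.1 IDR peaks per 100 kb against 2.88 on 2R. That of mbc held 12.6, against 3.18 on 3R. Msp300 had 1.82 per 100 kb against 3.28 on 2L, and sls 1.25 against 3.08 on 3L. The arm values cover all sequence, also that between genes, and no test of these densities was made.

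**Figure D3:**
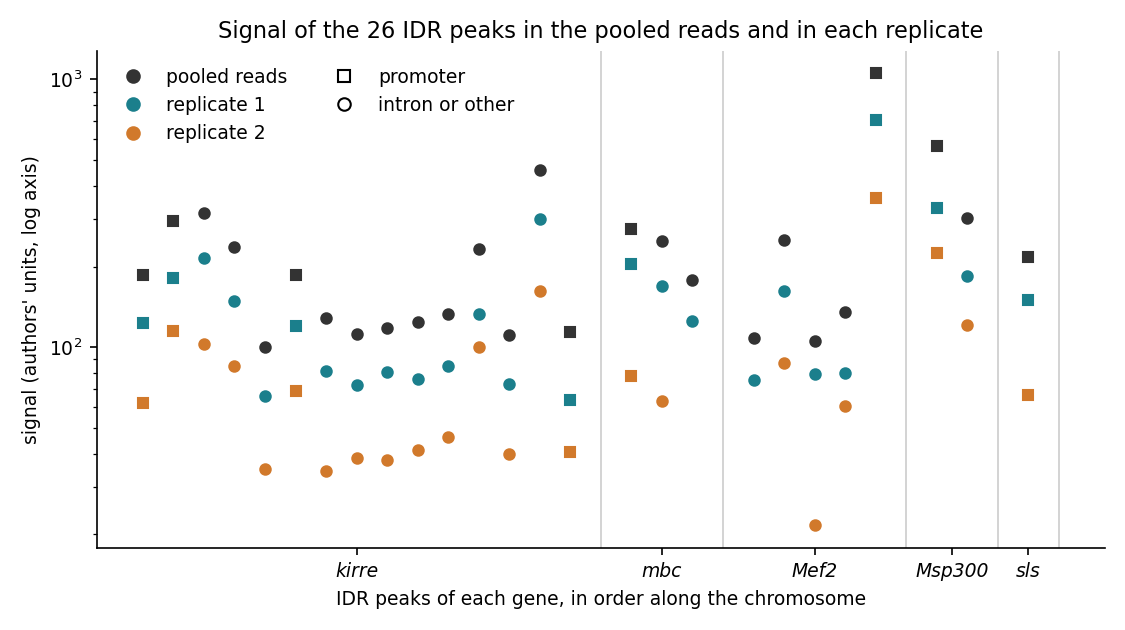
Signal of the 26 IDR peaks at muscle genes, in authors' units on a log axis, with each gene's peaks in order along the chromosome. Squares are promoter summits and circles are intron or other summits. Replicate 1 lies above replicate 2 at all 24 peaks that have both, and the peak upstream of Mef2 (1052) is the tallest. The farther intronic mbc peak and a weak Mef2 peak have no replicate 2 value within 100 bp.

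The 5 genes without an IDR peak had only weak candidates. Mhc, on 2L from 16766566 to 16788766 (FBgn0264695), had 4 pooled candidates, and the strongest, 130 bp upstream of a TSS of Mhc, had a signal of 48.62 (rank 10279). It was matched in replicate 1 (32.11) and not in replicate 2. A neighbouring one 319 bp upstream had 45.55 and was matched in replicate 2 (18.16), while the nearest candidate of replicate 1 (30.31) lay 131 bp away, outside the matching distance. The nearest IDR peak lay 45657 bp outside the gene.

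The troponin T gene up, on X from 13593474 to 13602578 (FBgn0004169), had 4 pooled candidates of signal 28.05 to 38.7. None was matched in both replicates. The actin gene Act57B, on 2R from 20944021 to 20946431 (FBgn0000044), had 1, with its summit 379 bp upstream of the TSS. Its signal was 37.31 in the pooled reads, 28.29 in replicate 1 and 13.38 in replicate 2. An IDR peak of signal 104.5 (rank 3865), whose nearest TSS was that of Act57B, lay 4063 bp outside the gene and so beyond the 2 kb margin.

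The Projectin gene bt lies on chromosome 4 from 724400 to 776474 (FBgn0005666), and had 7 pooled candidates of signal 28.14 to 37.33, of which 3 lay in coding exons. Replicate 1 had 2 candidates there and replicate 2 had 16, all at 26.6 or lower in signal. The whole of chromosome 4 carried 15 IDR peaks, 1.11 per 100 kb. The receptor gene sns, on 2R from 8798489 to 8856091 (FBgn0024189), was the only member with no pooled candidate at all, in a span of 57.6 kb. Replicate 1 listed 1 candidate there (22.73) and replicate 2 listed 3 (at most 19.2). Since the lists hold only candidates, a missing entry says that none was called and not that signal was 0.

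Read against all genes, 5 of 10 lay between the shares found for short and for long protein-coding genes. Over all 18164 genes 30.9% had an IDR summit in the span or within 2 kb, and over protein-coding genes 34.4%. By length, the share was 29.2% of protein-coding genes under 5 kb, 47.6% at 5 to 20 kb, 53.5% at 20 to 50 kb, 63.4% at 50 to 100 kb and 60.2% at 100 kb or more. Of the members, Act57B is in the first class and had none. In the next class mbc had peaks and up did not, at 20 to 50 kb Mef2 did and Mhc did not, and at 50 to 100 kb sls did while bt and sns did not. Both members of 100 kb or more, Msp300 and kirre, had peaks. Pooled candidates of any strength lay at 9 of the 10, against 76.5% of protein-coding genes.

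**Figure D4:**
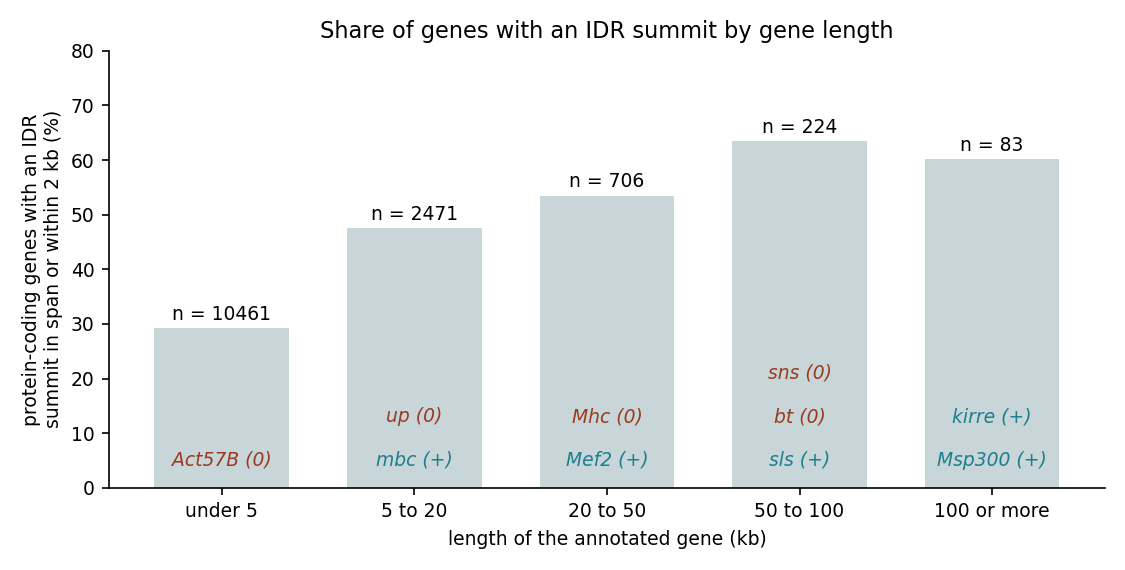
Share of protein-coding genes with an IDR summit in the span or within 2 kb, in percent, by length of the annotated gene, with the number of genes above each bar. Members are written in the bar of their class, with (+) for an IDR peak and (0) for none. Bars rise from 29.2% under 5 kb to 63.4% at 50 to 100 kb, and each class that holds 2 or 3 members below 100 kb has 1 with a peak.

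At their own TSSs 3 of the 10 genes had an IDR summit, namely Msp300, mbc and sls, against 19.8% of protein-coding genes. Of all 166 pooled candidates at the 10 genes, 26 were IDR peaks (15.7%, exact 95% binomial interval 10.5 to 22.1%, counting error only), against 15.1% of all pooled candidates. The interval treats candidates as independent, which those of 1 gene are not, and 102 of the 166 lay at kirre. Without kirre the share was 11 of 64 (17.2%). Candidates below the IDR list were matched within 100 bp in both replicates in 44 cases (31.4%), against 29.5% of all such candidates. These shares were near the background and are no result about muscle genes.

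Introns held 17 of the 26 member peaks (65.4%), and 11 of the 17 were those of kirre. The share was 32.9% over all IDR peaks, which include intergenic ones, and 61.7% over IDR peaks at protein-coding genes of 20 kb or more. The members' share was near the latter, a comparison added after the data had been seen. Promoters held 8 (30.8%), against 52.6% over all IDR peaks, and in 6 of these 8 the nearest TSS was that of another gene. The promoter share at genes of 20 kb or more is not given here. Without kirre introns held 6 of 11 (54.5%). No difference in shares was tested. Of the 26 peaks, 24 were matched in both replicates, against 96.2% of all IDR peaks. The IDR threshold was itself set by comparing rankings between replicates, so the match is no test of the sites. Median pooled signal was 185.7, against 163.6 over all IDR peaks, and 15 of the 26 lay above the latter.

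Summit windows of the member genes were rich in A and T, as were IDR windows in general. Their GC content ran from 20.8 to 57.4%, with a median of 32.7%, against 31.7% over all IDR windows and 44.6% in windows centred 300 bp away. The longest A and T run had a median of 10.5 bp, against 10 over all and 7 in the flanking windows. The 8-letter words that led the IDR summits outside the member genes were themselves made of A and T. They were chosen for the largest difference in share between those summit windows and their flanks. That difference is thus no finding, either for a single word or for the 10 words together. The first, AAAAATAT on either strand, was in 6.89% of those summit windows and 2.32% of their flanks. At least 1 of the 10 leading words was in 7 of the 26 member windows (26.9%) and in 37.1% of all IDR windows, against 13.8% of flanks. The most, 5 of the words, sat in the intronic Msp300 window shown above.

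Known motifs were counted in the same summit windows. The E-box, CANNTG, recognised by factors such as Twist and Nautilus, was in 8 of 26 member windows (30.8%), against 33.6% of all IDR windows and 40.1% of flanks. Its Twist-type form CATATG was in 0 of 26, in 3.98% of all and in 3.255% of flanks. The TATA word TATAAA was in 3 (11.5%), all of them kirre peaks, against 21.9% of all and 9.08% of flanks. The insulator word CGATA (of BEAF-32) was in 1 (3.85%), against 16.7% of all and 11.5% of flanks. TATCGATA, the element bound by Dref, which contains CGATA, was in 0, against 1.82% of all and 0.51% of flanks. GAGAG was in 1, against 8.60% of all and 16.2% of flanks. The core promoter word GGTCACAC was in 0, against 1.04% of all and 0.607% of flanks. Both strands were searched, and a word that is missing from a window says nothing of the factor.

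Other muscle genes were read from 5 lists by role. They are to be set beside the 34.4% of all protein-coding genes with an IDR summit in span or within 2 kb. By length that share was 29.2% under 5 kb, 47.6% at 5 to 20 kb and 53.5% at 20 to 50 kb, the class of the calcium list's median length. Of 28 sarcomere and contraction genes 10 had an IDR summit in span or within 2 kb (35.7%), with the highest signals at the thin filament capping gene tmod (430.3, intron), at Zasp52, which encodes a Z disc protein (251.9), and at the tropomyosin gene Tm1 (185.4, promoter). The tropomyosin gene Tm2 and the troponin I gene wupA had candidates only. Of 28 genes of myoblast specification and transcription 12 had one (42.9%), led by zfh1, a zinc finger and homeodomain repressor gene (391.5, intron), bin, a forkhead gene of visceral mesoderm (374.1), and the T-box gene org-1 (358.7, promoter). The mesoderm gene twi had a single peak of 105.9, nearest to another gene, and the heart gene tin had one of 249.8 at its promoter.

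Of 17 myoblast fusion genes 8 had one (47.1%). The highest signals were at Hem, a gene of the SCAR complex (430.5), at the adaptor gene drk (316.6, nearest to mars) and at the GTPase gene Rac1 (228.2, nearest to scf). The Hem peak lay within 500 bp of a TSS of Hem but nearest to that of IleRS. Of 20 attachment and adhesion genes 13 had one (65.0%), led by stck, which encodes a partner of integrin-linked kinase (442.6), the vinculin gene Vinc (322.9, promoter) and the talin gene rhea (268.8, intron). Of 11 calcium and excitation genes 4 had one (36.4%), led by Orai (164.1, promoter), SERCA (133.0) and Itpr (103.1). At their own TSSs 4 of 28 sarcomere genes (14.3%), 5 of 28 specification genes (17.9%) and 3 of 17 fusion genes (17.6%) had an IDR summit. For attachment genes it was 3 of 20 (15%) and for calcium genes 1 of 11 (9.09%). The share over protein-coding genes was 19.8%, and with so few genes per list the differences are no result about muscle genes. The median gene length was 4.66 kb in the sarcomere list, 7.57 kb in the specification list, 7.27 kb in the fusion list, 14.4 kb in the attachment list and 24.7 kb in the calcium list. No test of the lists was made.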

How the data were processed

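Signal values and peak positions were used as the authors deposited them, in candidate and IDR lists on dm6. Per the file descriptions, each list was called against a control library, which was not analysed here. The deposited -log10 q value was tied at 3.65 for 2233 of 4117 IDR peaks and was not used for ranking. The sources used here do not give the aligner, the peak caller or their versions, nor the number of reads behind each list. Per the labels, chromatin was sonicated to 200 to 800 bp. The candidate list of replicate 2 ends at 30000 entries, which may be a limit. The dm3 lists were not used.

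Genes and TSSs came from Ensembl release 115 without transposable elements, and sequence from the RefSeq copy of Release 6. Positions are 1-based. Classes, matches within 100 bp, windows of 101 bp, motif counts and 8-letter words were computed with Python 3.11.15, pandas 2.3.3 and scipy 1.17.1, and the word ranking and classes were checked on simulated data. With 1 group there was no test between conditions and no p-value. All 10 members are named, with the gene of the nearest TSS at each member peak and the 3 genes of highest signal in each muscle list. Tm2, wupA, rst, twi and tin were named after their values were seen. Of 104 listed names, all matched, 3 by an older name. Members and lists were chosen with earlier results of these data known. Alternatives were other margins, the nearest TSS, a stricter IDR list, the strongest candidates of a single replicate, promoter widths and match distances. The full Mef2 consensus and the intron share at genes of 20 kb or more were added after the data had been seen.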

Additional observations from a re-analysis of the deposited data

How the results depend on the processing

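Of 45 alternative values for 7 results, 37 stayed within 1.5 times the main count, or within the interval of the share, and 8 did not. Counting only summits whose nearest TSS is the member's own left 14 IDR peaks, 81 pooled candidates, 12 peaks matched in both replicates and 11 intronic peaks. Among the 2058 strongest IDR peaks there were 15 at the members, 14 of them matched in both and 7 intronic, and the share of candidates fell to 9.04%. In a shortened list these counts and the share could only fall, and the share over all candidates is not given for it. The number of genes with a peak ran from 4 with no margin, which drops sls, to 6 with 5 kb, which adds Act57B. Shares over all genes at these margins are not given here. The list of either replicate, cut to its strongest candidates, gave 5 genes and 25 peaks. The make-up differed: Msp300 had 2 in replicate 1 and 4 in replicate 2, and mbc 3 and 4. Mef2 had 5 and 3, kirre 14 and 13, and sls 1 in each. No paired analysis was possible because there is 1 group and no test. Reads per peak are unknown, so weak candidates cannot be given an error.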
